A study of Mus musculus with 5 samples.

Results

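Chemokines are small secreted proteins that direct where leukocytes move. This account covers 8 chemokine ligand genes of myeloid cells, Cxcl1, Cxcl2, Cxcl10, Ccl2, Ccl3, Ccl4, Ccl6 and Ccl9, picked by gene symbol out of the 31053 genes in the count matrices. All 8 had at least 1 UMI (a sequenced molecule, counted by its barcode) in each library. Cxcl1 and Cxcl2 bind Cxcr2 and mobilize neutrophils, and Cxcl10 is an interferon-induced ligand of Cxcr3 on T cells and NK cells. Ccl2 is a ligand of Ccr2, the receptor that Ly6Chi monocytes use to leave the bone marrow (BM). Ccl3 and Ccl4 are inflammatory chemokines, whereas Ccl6 and Ccl9 are ligands of Ccr1 that myeloid cells can make without an added stimulus. NF-kB signaling and interferon signaling are known to switch on several of these genes within a short time.

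BM cells came from BALB/c mice of 4 to 8 weeks, either untreated (naive) or injected intraperitoneally with the alkylating drug cyclophosphamide (CTX) at 150 mg/kg. Whole BM was taken from naive mice and on day 2 and day 7 after CTX (D2 CTX BM and D7 CTX BM), each as 1 library of live-enriched cells mixed from 3 mice. CD11b+Ly6Chi monocytes sorted from naive and from CTX-treated mice gave a further 2 libraries (naive sorted and CTX sorted). The labels give no day for CTX sorted, which the study describes as day 7, and how many mice these libraries hold is not given in the sources used here. Since each group is 1 library, no test between groups was possible and no p-value is given. Ratios are described by size, and the brackets are 95% intervals that cover counting error only, not the difference between mice or between preparations. Intervals of levels and ratios take each UMI as independent, so they do not cover the spread between cells of a library either.

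After cells with under 200 genes or at least 20% mitochondrial UMIs were left out, 7104 naive BM, 6126 D2 CTX BM, 8290 D7 CTX BM, 1891 naive sorted and 2564 CTX sorted cells remained, with median depths of 3954, 3034, 7189.5, 10299 and 9694 UMIs. Levels are UMIs of a gene per 1000000 UMIs of the cells summed (CPM). Pairs of libraries shared 1 to 15 cell barcodes, at most 0.317% of the smaller one. Each cell was placed in a class by marker genes that include none of the 8 ligands. The Ly6c2-high monocyte gate, for example, rests on 7 markers such as Ly6c2, Ccr2 and Csf1r, and it took 403, 106 and 558 cells of the whole BM libraries, 1563 of the naive sorted cells and 1955 of the CTX sorted cells. In naive and CTX sorted cells the 7 monocyte markers summed to 6072 and 5926 CPM, the 6 markers of basophils and mast precursors to 0.673 and 1.15 CPM, and the 8 macrophage markers to 8.80 and 9.40 CPM, with C1qa, C1qb, C1qc and Cd5l at 0 in both. The 6 markers of mature neutrophils summed to 205 and 267 CPM there and the 6 of immature neutrophils to 1110.4 and 1724 CPM, against 133 and 108 CPM and 283 and 261 CPM within the monocyte gate. Their part in the sorted values was not tested. B lineage cells, which lack the myeloid program, were read as the background that free RNA leaves in each whole BM library, although activated B cells can make Ccl3 and Ccl4.

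The 8 genes lie on 2 chromosomes (GRCm38, GENCODE positions). Cxcl1 (5:90891241-90893115) and Cxcl2 (5:90903871-90905938) are neighbors on the plus strand, 10.8 kb apart, and Cxcl10 lies further along (5:92346638-92348889, minus strand). On chromosome 11, Ccl2 (82035571-82037453) stands apart from a cluster that holds Ccl9 (83572919-83578636), Ccl6 (83587882-83593087), Ccl3 (83647844-83649355) and Ccl4 (83662584-83664683). Within that cluster Ccl9, Ccl6 and Ccl3 are on the minus strand and Ccl4 is on the plus strand, 13.2 kb from Ccl3. All 8 are protein coding genes of 3 or 4 exons. The 250 bases before the RefSeq start site are shown for Cxcl1 and Cxcl2, the ligands that differed most between the sorted libraries. They are also shown for the interferon-induced Cxcl10 and for Ccl6, which both differed less (log2 ratio of -0.53 each). That start site lies 4 bases inside the GENCODE gene for Cxcl1 and 28 bases inside it for Cxcl2, whose windows therefore end within the positions given above, and it is the same base for Cxcl10 and Ccl6. The sequences are from RefSeq on GRCm38.p6 and run 5′ to 3′ on the gene's strand. Capitals mark matches on either strand to a kappa B motif (GGGA, a pair of free bases, T, 1 free base, CC) or to an interferon element (GAAA, a pair of free bases, GAAA).
Cxcl1 (chr5:90890995-90891244, plus strand): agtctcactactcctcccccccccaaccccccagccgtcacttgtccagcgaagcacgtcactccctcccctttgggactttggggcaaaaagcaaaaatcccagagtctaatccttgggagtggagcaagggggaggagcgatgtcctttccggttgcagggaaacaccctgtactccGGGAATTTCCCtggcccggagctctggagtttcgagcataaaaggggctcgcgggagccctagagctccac
Cxcl2 (chr5:90903649-90903898, plus strand): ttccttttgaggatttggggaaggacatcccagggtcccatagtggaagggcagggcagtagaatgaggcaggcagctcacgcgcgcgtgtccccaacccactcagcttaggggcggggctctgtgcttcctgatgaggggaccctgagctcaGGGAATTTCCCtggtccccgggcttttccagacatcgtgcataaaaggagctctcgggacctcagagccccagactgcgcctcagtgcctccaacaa
Cxcl10 (chr5:92348890-92349139, minus strand): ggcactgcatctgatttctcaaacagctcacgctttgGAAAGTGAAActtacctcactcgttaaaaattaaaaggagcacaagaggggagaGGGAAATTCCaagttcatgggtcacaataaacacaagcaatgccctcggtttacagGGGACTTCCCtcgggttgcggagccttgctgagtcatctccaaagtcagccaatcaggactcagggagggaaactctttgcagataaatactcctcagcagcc
Ccl6 (chr11:83593088-83593337, minus strand): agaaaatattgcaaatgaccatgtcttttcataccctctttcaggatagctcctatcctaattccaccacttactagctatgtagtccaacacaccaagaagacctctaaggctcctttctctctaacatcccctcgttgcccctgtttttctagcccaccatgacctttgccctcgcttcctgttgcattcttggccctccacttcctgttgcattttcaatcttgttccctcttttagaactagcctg

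Cxcl1 and Cxcl2 carry the same kappa B letters close to their RefSeq start sites, with first bases at -71 and -97 from them, and each stretch matches on both strands because it overlaps its own reverse. Cxcl10 holds kappa B matches at -159 and -103 and an interferon element at -213. Ccl3, Ccl6 and Ccl9 have no match to either motif in this window. Of 32851 promoter windows searched in the same way, 3.33% hold a kappa B match and 2.98% an interferon element, and a match is a description of the letters, not a bound site. Windows were found for 6 of the 8 genes, and none is shown for Ccl2 and Ccl4.

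In whole libraries the ligands differed by cell source and by treatment. Cxcl1 was close to absent from whole BM, at 0.0217 CPM in naive BM (1 UMI), 0.118 on D2 (4 UMIs) and 0.191 on D7 (13 UMIs), and it reached 20.8 CPM in naive sorted cells (464 UMIs) against 0.0699 CPM in CTX sorted cells (2 UMIs). Cxcl2, the other neutrophil attractant, was at 64.1 CPM in naive BM, 192 at D2, 45.2 at D7, 888 in naive sorted cells and 45.8 in CTX sorted cells. Both CXC ligands thus had their highest value in the naive sorted library, and for Cxcl1 that library held nearly all UMIs. Cxcl10 was low everywhere, at 2.19, 3.42 and 3.42 CPM in the whole BM libraries and 13.2 and 9.12 CPM in naive and CTX sorted cells.

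The CC ligands Ccl2, Ccl3, Ccl6 and Ccl9 were also highest in naive sorted cells. Ccl2 was at 3.39, 7.72 and 6.30 CPM in naive, D2 CTX and D7 CTX BM and at 302 and 106 CPM in naive and CTX sorted cells. Ccl3 was at 60.1, 58.6 and 43.1 CPM in whole BM and at 839.7 and 397 CPM in the sorted libraries, so that both sorted libraries were above all whole BM libraries. Ccl4 did not follow this order: it was at 59.5, 96.8 and 13.6 CPM in whole BM and at 92.4 and 43.4 CPM in naive and CTX sorted cells, lowest in D7 CTX BM, with overlapping intervals for its highest values in D2 CTX BM [93.5, 100.2] and naive sorted cells [88.4, 96.4]. Ccl6 was at 243, 289 and 236 CPM in whole BM and at 590.5 and 408 CPM after sorting. Ccl9 was at 36.8, 58.8 and 43.0 CPM in whole BM and at 378 and 294 CPM after sorting. Among the whole BM libraries Ccl6 varied little, whereas Ccl9 was 1.59-fold higher in D2 CTX BM than in naive BM.

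**Figure D1:**
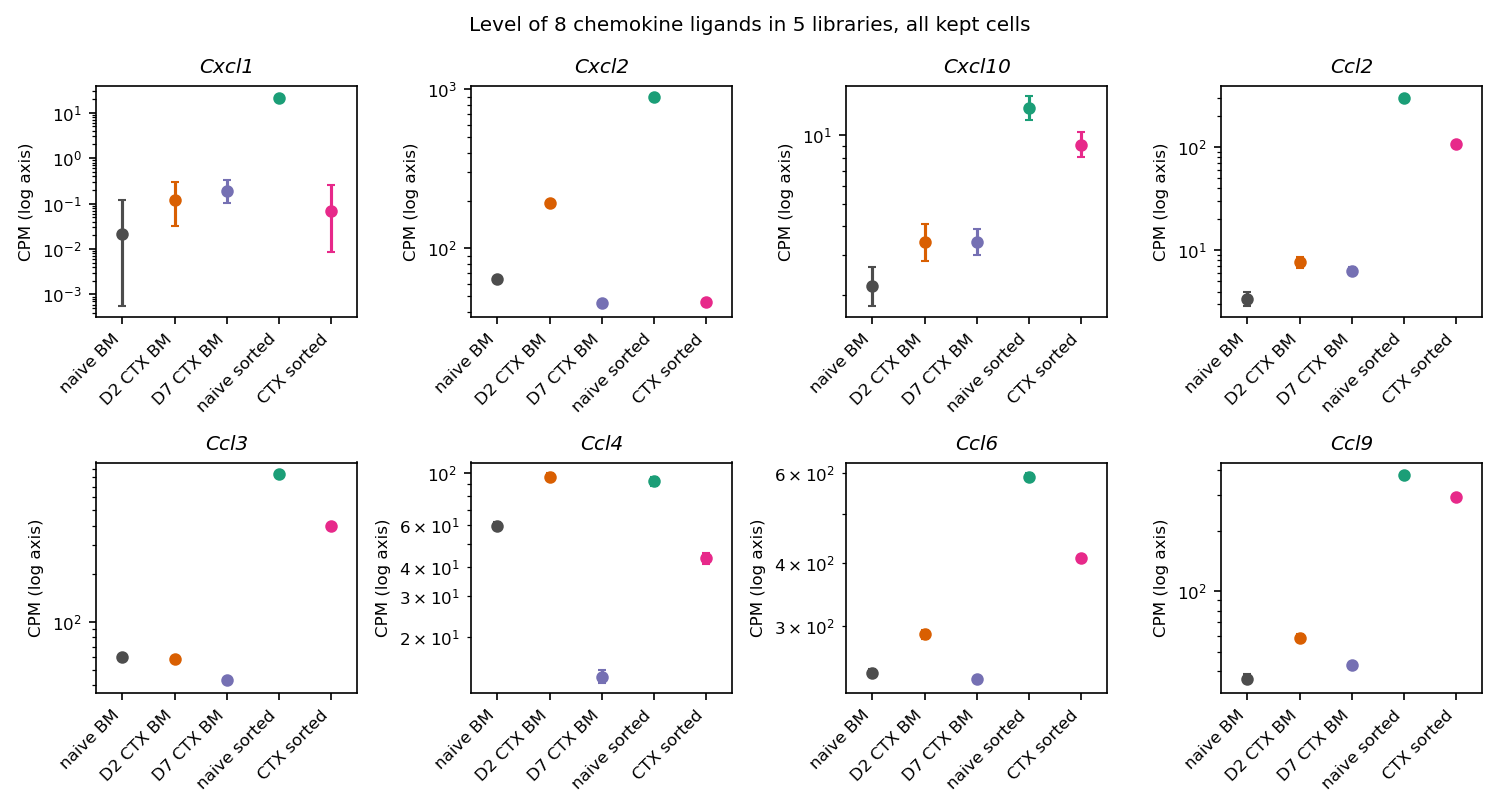
Level of each of the 8 chemokine ligands in the 5 libraries, over all kept cells. The y axis is CPM on a log axis that differs between panels, each point is 1 library and bars are 95% counting intervals. Naive sorted cells are highest for 7 of the 8 genes, and Ccl4 is at 96.8 CPM in D2 CTX BM and 92.4 CPM in naive sorted cells, with overlapping intervals.

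The comparison of sorted monocytes asked how classical monocytes of CTX-treated mice differ from those of naive mice. All 8 ligands were lower in CTX sorted than in naive sorted cells, and 5 of them, Cxcl1, Cxcl2, Ccl2, Ccl3 and Ccl4, were lower by at least 1 log2 unit. Of 10673 genes with at least 50 UMIs over the pair, 1.49% were lower by that much and 0.815% were higher. The median log2 ratio was -1.09 over the 8 ligands and 0.04 over all genes counted.

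Among the CXC ligands, Cxcl1 had the largest ratio, with a log2 ratio of -8.22 [-11.27, -6.36] that rests on 2 UMIs in CTX sorted cells. Cxcl2, counted far more often (19790 UMIs against 1310), was 19.4-fold lower, a log2 ratio of -4.28 [-4.36, -4.20]. The share of cells differed as well. After each Ly6c2-high monocyte was thinned to 1000 UMIs, 43.4% [40.9, 45.9] of naive sorted cells and 4.42% [3.55, 5.43] of CTX sorted cells held a Cxcl2 UMI (73.4% and 14.4% before thinning). A Cxcl1 UMI was found in 2.72% of thinned naive sorted monocytes and in 0 of 1947 thinned CTX sorted monocytes, which allows a share of up to 0.154%. Cxcl10 differed less, by -0.53 [-0.78, -0.29] log2 units, and in the CTX sorted library 1 cell held 82 of its 261 UMIs.

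Among the CC ligands, Ccl2 was 2.83-fold lower in CTX sorted cells, a log2 ratio of -1.50 [-1.56, -1.44]. Ccl3 and Ccl4 were lower by nearly the same amount, with log2 ratios of -1.08 [-1.12, -1.05] and -1.09 [-1.19, -0.99], so that the interval for Ccl4 reaches past the 1-unit limit. Ccl6 (-0.53 [-0.57, -0.50]) and Ccl9 (-0.37 [-0.41, -0.32]) were lower by less than 1 unit. The share of thinned monocytes with a UMI was 50.4% against 31.1% for Ccl3, 25.4% against 11.4% for Ccl2, 8.34% against 4.78% for Ccl4, 48.9% against 40.1% for Ccl6 and 36.4% against 31.9% for Ccl9, naive sorted first. Monocytes with UMIs of 3 or more of the ligands at the same time made up 40.0% [37.6, 42.5] of thinned naive sorted cells and 9.55% [8.28, 10.9] of thinned CTX sorted cells. Limited to the Ly6c2-high monocyte gate, the log2 ratios were -8.01 for Cxcl1, -4.21 for Cxcl2, -1.40 for Ccl2, -1.02 for Ccl3 and -1.06 for Ccl4, while Cxcl10 (-0.41), Ccl6 (-0.43) and Ccl9 (-0.27) were within 1 unit.

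The sorted libraries differed in how many cells carried transcripts of the azurophil granule proteases and myeloperoxidase (Mpo, Elane, Prtn3, Ctsg), which mark early granulocyte and monocyte precursors. Cells with under 5 such UMIs per 10000 made up 71.9% of naive sorted and 63.3% of CTX sorted cells, and cells with at least 30 made up 7.99% and 11.5%. These limits cut a continuous range, and 143 and 243 cells lay within 20% of the lower one. Cxcl2 was lower in CTX sorted cells at each level of azurophil content, at 70.0 against 1266 CPM under 5, 24.8 against 406 CPM from 5 to 30, and 7.63 against 102 CPM from 30 up. Within both libraries it was also highest where azurophil content was lowest. Ccl3 showed the same arrangement with smaller steps, at 501 against 1001, 323 against 675 and 203 against 421 CPM. Ccl6 differed more along this range than between the libraries, at 848, 257 and 61.9 CPM in naive sorted cells and 630.2, 223 and 44.9 CPM in CTX sorted cells. Ccl2 (398, 200.4 and 58.9 CPM in naive sorted and 151, 78.7 and 18.6 CPM in CTX sorted cells), Ccl4 (124, 55.3 and 21.6 and then 60.1, 28.5 and 17.9 CPM) and Ccl9 (507, 225 and 86.9 and then 427, 187 and 69.7 CPM) had the same order along the range. Cxcl10 did not, at 15.7, 7.90 and 12.3 CPM in naive sorted and 12.6, 4.51 and 6.39 CPM in CTX sorted cells. Cxcl1 was at 31.2, 4.98 and 4.45 CPM in naive sorted cells, and its 2 UMIs in CTX sorted cells were in cells under 5.

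The same gate was applied to unsorted BM, so that sorted and unsorted Ly6c2-high monocytes could be set side by side. These cells differ in preparation as well as in the sort. In naive mice 6 of the 8 ligands were at least 1 log2 unit higher in sorted than in unsorted monocytes and none was lower, where 3.13% of 9534 genes were higher and 3.12% lower by that much. The median log2 ratio was 2.38 over the ligands and -0.10 over all genes counted. Cxcl1 had 442 UMIs in sorted naive monocytes (25.9 CPM) and 0 in unsorted ones, which makes it at least 24.2-fold higher, taking 3 counts as the floor of the unsorted sum. Cxcl2 was at 1074 CPM in sorted and 58.7 CPM in unsorted naive monocytes, an 18.3-fold difference and a log2 ratio of 4.19 [3.97, 4.42].

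Ccl2 was at 372 against 40.4 CPM (log2 ratio 3.20 [2.93, 3.48]), and Ccl3 at 954 against 147 CPM (2.69 [2.55, 2.84]). Ccl4 was at 111 against 26.5 CPM (2.06 [1.73, 2.42]), and Cxcl10 at 13.9 against 6.80 CPM (1.03 [0.35, 1.78]). Cxcl10 was within 1 unit under the 2 alternatives run for this pair (0.92 and 0.96). Ccl6 and Ccl9 were within 1 unit, with Ccl6 at 730.3 against 838 CPM (-0.20 [-0.26, -0.13]) and Ccl9 at 459.5 against 377 CPM (0.28 [0.19, 0.38]).

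In CTX-treated mice, set against D7 CTX BM, only Ccl2 was past 1 unit among the 7 ligands counted, at 141 CPM in sorted and 69.2 CPM in unsorted monocytes (1.03 [0.85, 1.21]). Here 1.78% of 9772 genes were higher and 1.72% lower, and the medians were -0.10 for the ligands and -0.00 for all genes counted. Cxcl2 was at 57.9 CPM sorted and 62.1 CPM unsorted (-0.10 [-0.30, 0.10]), Ccl3 at 472 and 318 CPM (0.57) and Ccl4 at 53.1 and 48.1 CPM (0.14). Cxcl10 (-0.46), Ccl6 (-0.35) and Ccl9 (-0.17) were lower in sorted cells by less than 1 unit, and Cxcl1 had too few UMIs to be counted. Set against D2 CTX BM instead, Ccl3 was past 1 unit higher, at 472 against 98.5 CPM (2.26), Cxcl2 (-1.39) and Cxcl10 (-1.04) were past 1 unit lower, and Ccl2 (-0.11), Ccl4 (-0.32), Ccl6 (-0.34) and Ccl9 (-0.25) were within 1 unit. For Cxcl2, the unsorted monocytes of naive, D2 CTX and D7 CTX BM (58.7, 152 and 62.1 CPM) and the CTX sorted monocytes (57.9 CPM) were all far below naive sorted monocytes (1074 CPM).

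**Figure D2:**
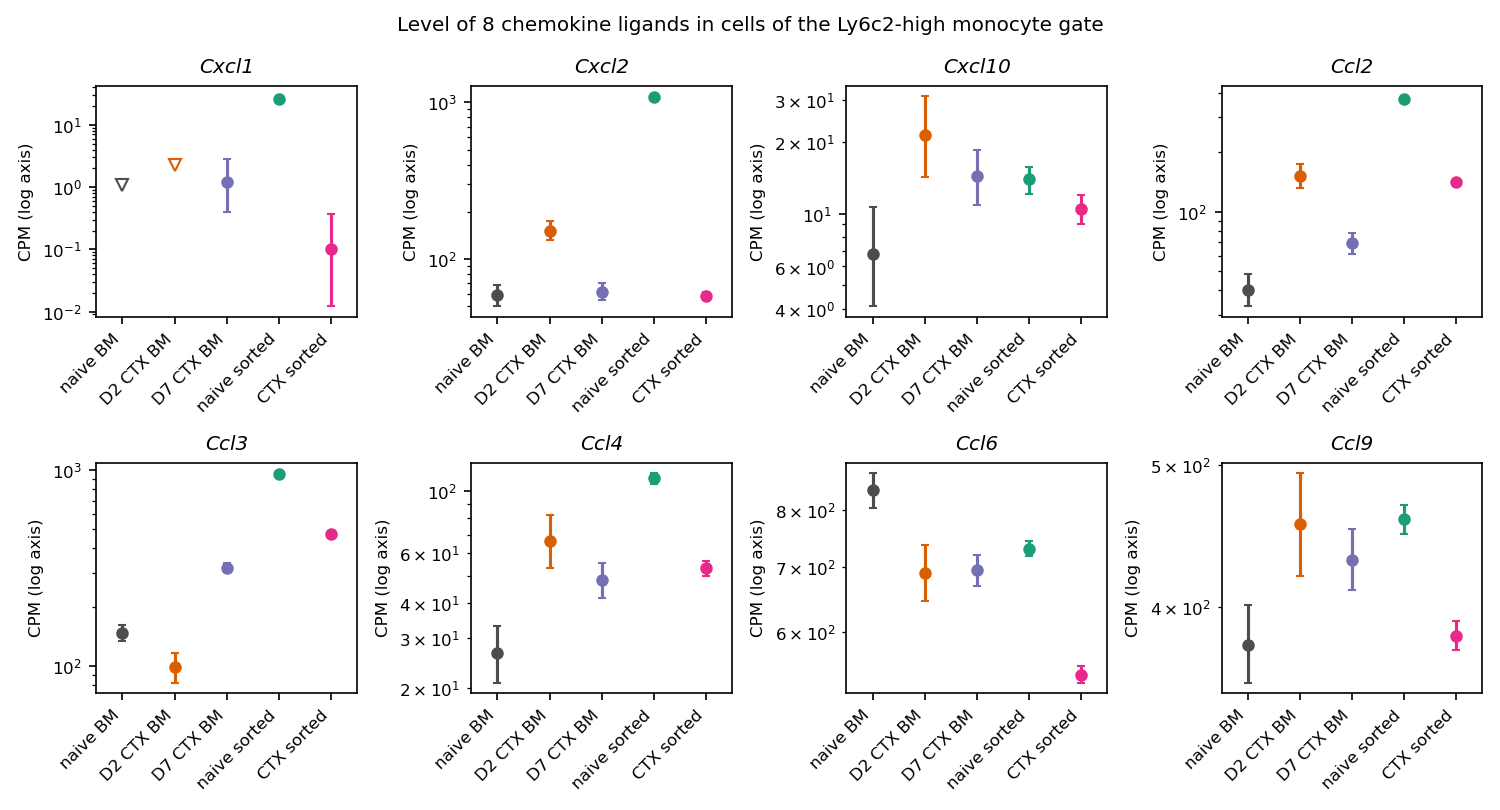
Level of each ligand in cells of the Ly6c2-high monocyte gate, unsorted (naive BM, D2 CTX BM, D7 CTX BM) and sorted (naive sorted, CTX sorted). The y axis is CPM on a log axis that differs between panels, bars are 95% counting intervals and open triangles are the level of 3 counts where no UMI was found. Naive sorted monocytes stand above the other 4 groups for Cxcl1, Cxcl2, Ccl2, Ccl3 and Ccl4, but not for Cxcl10 and Ccl6, and for Ccl9 naive sorted (459.5 CPM) and D2 CTX (456 CPM) monocytes have overlapping intervals.

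Genes that respond early to handling and stress were higher in sorted cells too. The 14 early response genes (Fos, Jun, Egr1, Atf3 and others) summed to 3830.1, 4433 and 5480.3 CPM in unsorted monocytes of naive, D2 CTX and D7 CTX BM and to 16017 and 12294 CPM in naive and CTX sorted monocytes. Of these, 11 of 14 were at least 1 unit higher in sorted than in unsorted naive monocytes (Atf3 by 3.38, Egr1 by 2.65, Jun by 2.50) and 6 of 14 in CTX monocytes. NF-kB pathway genes summed to 1067, 1245 and 1125 CPM in unsorted monocytes and to 2870.3 and 1469 CPM in naive and CTX sorted monocytes. In naive monocytes 10 of 20 NF-kB pathway genes counted were higher after sorting, led by Cd83 (5.19), Tnf (3.20) and Traf1 (3.11), and none was lower. Over all genes counted, 3.13% were higher and 3.12% lower by at least 1 unit in naive monocytes, and 1.78% were higher in CTX monocytes.

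Between the sorted libraries, 9 of 20 NF-kB pathway genes were at least 1 unit lower in CTX sorted cells, led by Cd83 (-3.12), Traf1 (-2.86) and the NF-kB inhibitor Nfkbia (-2.26), and 3 of 14 early response genes were lower, Hspa1b (-2.22), Hspa1a (-1.95) and Egr1 (-1.18). Of all genes counted, 1.49% were lower by that much. When only sorted monocytes with an early response content below the 90th percentile of unsorted naive monocytes were kept, 57 naive and 158 CTX cells remained. In these cells Cxcl2 was at 142 against 25.9 CPM, naive first, a log2 ratio of -2.46. Ccl4 gave -1.44, on 47 naive and 43 CTX UMIs, and Ccl2 (-0.70) and Ccl3 (-0.40) were within 1 unit. Cxcl1 had 1 UMI in the naive and 0 in the CTX cells kept, too few to be counted. The cells kept are a small part of the 1563 naive and 1955 CTX sorted monocytes, picked on a content that itself differed between the libraries. The part of handling in the difference between the sorted libraries was not tested, and with 1 library per group it cannot be told apart from CTX.

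**Figure D3:**
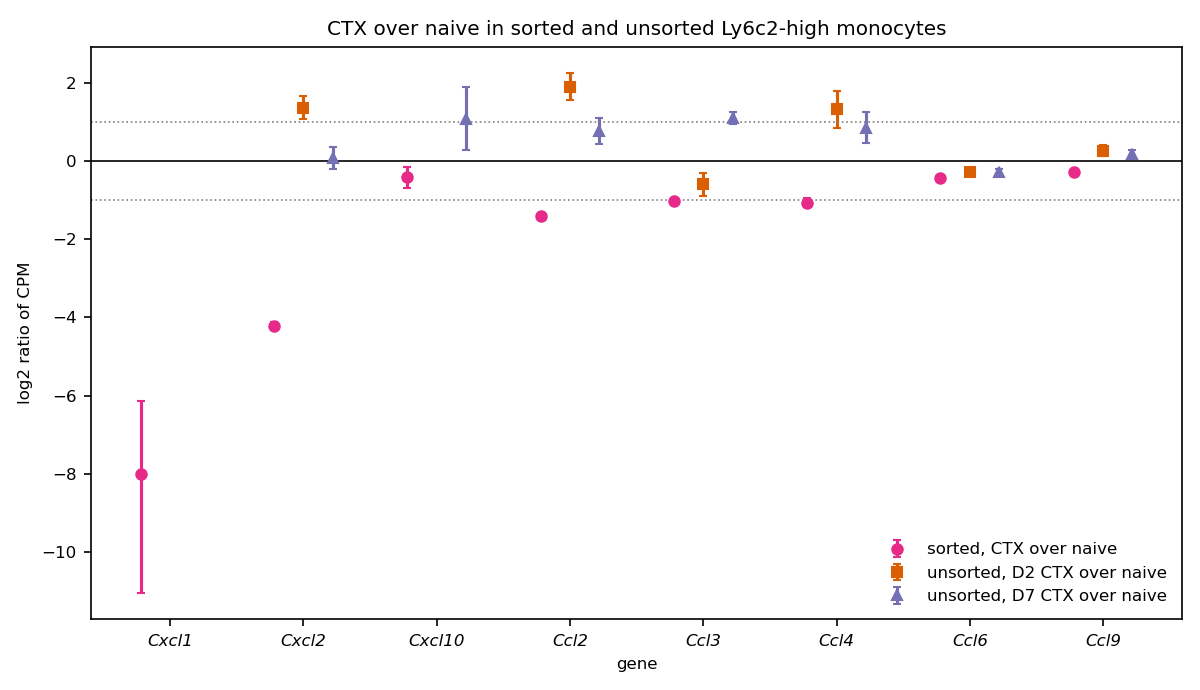
Log2 ratio of CPM, CTX over naive, of each ligand in Ly6c2-high monocytes, sorted (circles), unsorted at D2 (squares) and unsorted at D7 (triangles), with 95% counting intervals. Dotted lines are 1 log2 unit, and genes with under 50 UMIs over a pair are left out. Sorted cells lie below 0 for all 8 genes (Cxcl2 at -4.21), whereas Ccl2 and Ccl4 of unsorted cells lie above 0 at both times.

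Which cells hold the ligands in unsorted BM was read from the marker-gated classes. Most Cxcl2 and Ccl6 UMIs of naive and D2 CTX BM were in mature neutrophils. Cxcl2 was at 800.1, 1509.6 and 297 CPM in mature neutrophils of naive, D2 CTX and D7 CTX BM and at 189, 216 and 72.2 CPM in immature neutrophils, against 1.54, 30.6 and 0 CPM in B lineage cells. Mature neutrophils held 60.5%, 62.4% and 42.4% of the Cxcl2 UMIs and 53.2%, 51.5% and 58.0% of the Ccl6 UMIs of the 3 libraries. Ccl6 was at 2664, 1871 and 2125 CPM in mature neutrophils, at 838, 689 and 694 CPM in Ly6c2-high monocytes and at 292, 248 and 182 CPM in immature neutrophils, an order of these 3 classes that was the same in each library. Its B lineage level was 6.36 CPM in naive BM, 46.2 in D2 CTX BM and 4.87 in D7 CTX BM.

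Ccl3 and Ccl4 were concentrated in a small class, the basophils or mast precursors, which numbered 67, 50 and 23 cells. Ccl3 was at 3811, 3491 and 2206 CPM in these cells and Ccl4 at 4276, 4611 and 1071 CPM in naive, D2 CTX and D7 CTX BM. They held 53.6% of the Ccl3 UMIs and 60.7% of the Ccl4 UMIs of naive BM, and still 49.5% and 39.6% in D2 CTX BM, but 11.7% and 17.9% in D7 CTX BM. In 71.2%, 75% and 43.5% of these cells, thinned to 1000 UMIs, Ccl3 and Ccl4 were found together. NK cells were the next class in naive and D2 CTX BM, with Ccl4 at 602, 1226 and 92.7 CPM and Ccl3 at 498, 365 and 170.0 CPM. Basophils or mast precursors also held Ccl6 (1123, 2133 and 219 CPM) and Ccl9 (478, 1042 and 780.4 CPM), and they had the highest Ccl9 level of any class in each library and the highest Ccl6 level at D2. Neither sorted library held a cell of the basophil or mast precursor gate, and Ly6c2-high monocytes held 86.8% and 82.7% of the Ccl3 UMIs and 91.7% and 85.0% of the Ccl4 UMIs there, naive first.

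Ccl2 had its highest level in Ly6c2-high monocytes of each whole BM library, and among classes of at least 20 cells Ccl9 had its second highest there. At D7, 16 cells of the macrophage gate were above them for Ccl9, at 600.4 CPM [343, 975], but its 16 UMIs came from 1 cell. Ly6c2-high monocytes held 72.4%, 76.0% and 66.8% of Ccl2 UMIs in naive, D2 CTX and D7 CTX BM, at 40.4, 152 and 69.2 CPM, and mature neutrophils held 1, 0 and 28 Ccl2 UMIs. The gate named MDP rests on the monocyte markers together with Mpo, Elane, Prtn3, Ctsg, Kit and Cd34, and on no dendritic cell marker. Irf8, Csf1r, Flt3, Ly86, Cd34 and Mpo summed to 1577 CPM in it against 678 CPM over naive BM. In naive and CTX sorted cells they summed to 1419 and 1321 CPM in the gate, against 1115 and 1294 CPM over all cells. Whether it holds monocyte and dendritic cell precursors was not tested. Ccl2 was at 19.0, 7.91 and 33.0 CPM in the MDP gate, and at 46.4 CPM in the MHC class II-rich myeloid cells of D2 CTX BM. Ccl9 was at 377, 456 and 431 CPM in Ly6c2-high monocytes, at 114, 199 and 205 CPM in the MDP gate and at 22.4, 97.9 and 44.6 CPM in the GMP gate (granulocyte and monocyte progenitors), whereas mature neutrophils were at 4.03, 14.8 and 7.77 CPM. Ccl9 thus differed from its chromosomal neighbor Ccl6, which neutrophils and monocytes shared. Ly6c2-high monocytes held 62.1%, 29.9% and 61.1% of Ccl9 UMIs, and their own number was lowest in D2 CTX BM.

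For Cxcl10, cycling pre-neutrophils held 32.7%, 12.1% and 52.2% of the UMIs of naive, D2 CTX and D7 CTX BM, at 5.92, 3.63 and 6.56 CPM. These UMIs were spread over 32 of 496, 14 of 225 and 106 of 1546 cells, at most 6.86% of the class. Ly6c2-high monocytes were at 6.80, 21.4 and 14.3 CPM, but the 28 UMIs of D2 CTX BM came from 1 cell and the 59 UMIs of D7 CTX BM from 8 cells (1.43%), and 1 further cell of the Ly6c2-low monocyte gate held 25 UMIs. Cxcl1 had 18 UMIs in whole BM in all, too few to place it in a class.

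**Figure D4:**
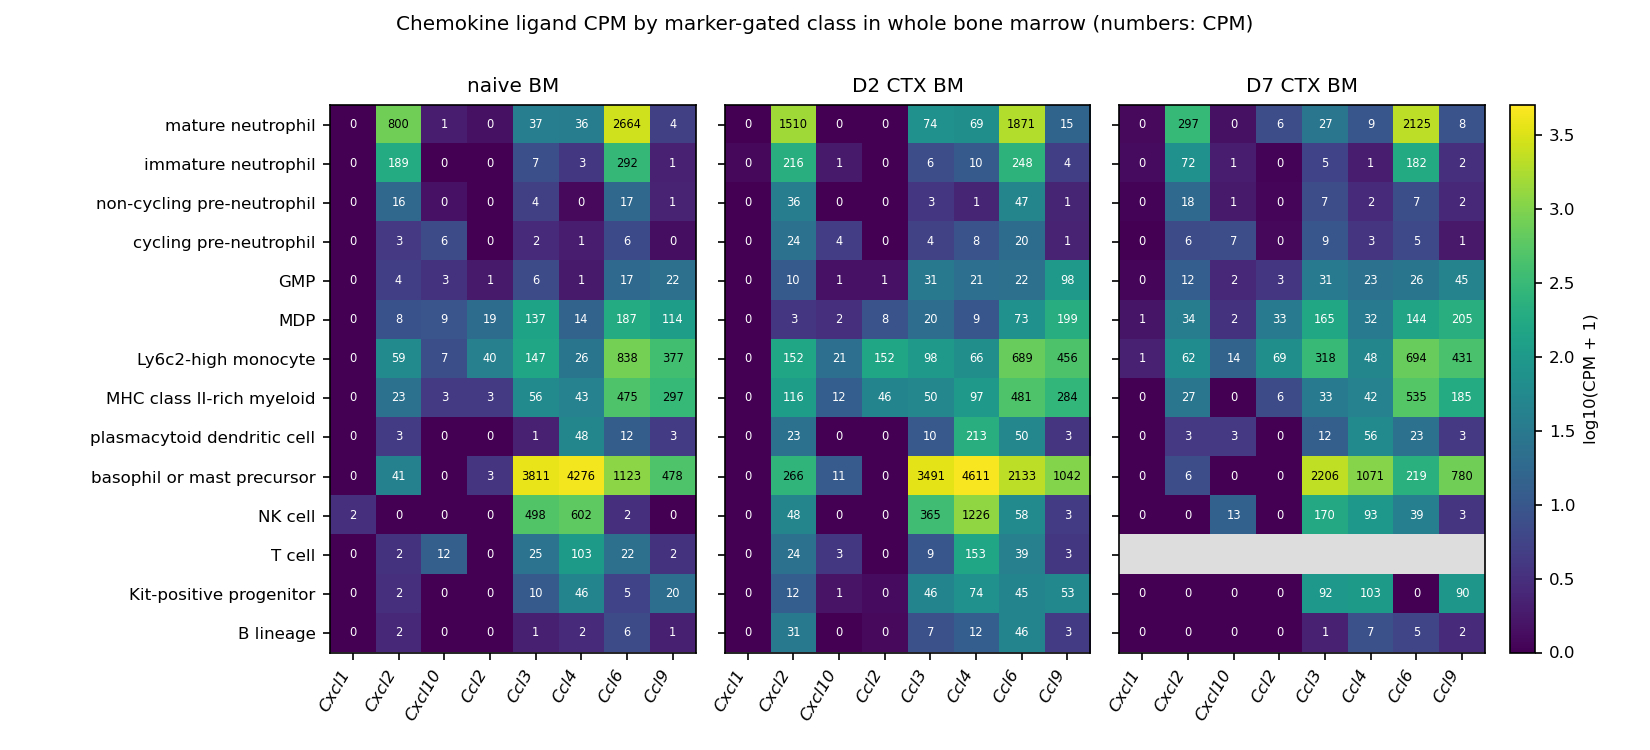
CPM of the 8 ligands (columns) in 14 marker-gated classes (rows) of naive BM, D2 CTX BM and D7 CTX BM. Color is log10(CPM + 1), the numbers are CPM rounded to whole units, and the T cells of D7 CTX BM (13 cells) are left grey. Ccl3 and Ccl4 peak in basophils or mast precursors (3811 and 4276 CPM in naive BM), Cxcl2 in mature neutrophils and Ccl2 in Ly6c2-high monocytes.

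The whole BM libraries followed the ligands over time after CTX. In sums over whole BM, fewer cells of a type and less RNA per cell cannot be told apart, so the class levels are given with them. At D2, Cxcl2 was 3.0-fold higher than in naive BM (log2 ratio 1.58 [1.52, 1.65]) and Ccl2 2.28-fold higher (1.19 [0.90, 1.48]). Ccl4 (0.70), Ccl9 (0.67), Cxcl10 (0.64), Ccl6 (0.25) and Ccl3 (-0.04) were within 1 unit and Cxcl1 was not counted, so that 2 of 7 were higher by at least 1 unit and none was lower. Of 12671 genes, 11.5% were higher and 4.23% lower by that much, with medians of 0.67 for the ligands and 0.23 for all genes. At D7, Ccl4 was 4.36-fold lower (-2.13 [-2.23, -2.02]), and Ccl2 (0.90), Cxcl10 (0.64), Ccl9 (0.22), Ccl6 (-0.04), Ccl3 (-0.48) and Cxcl2 (-0.51) were within 1 unit. In that comparison 32.2% of 12431 genes were lower and 1.83% higher, and the median of all genes was -0.69 against -0.04 for the ligands, so that a ratio of 0 in D7 CTX BM is above that of most genes. Scaled by the median ratio of all genes, Ccl2 (1.58) and Cxcl10 (1.33) were past 1 unit, Ccl4 was still lower (-1.44), and the sign turned for Cxcl2 (0.18), Ccl3 (0.21) and Ccl6 (0.65).

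Mature neutrophils of D2 CTX BM held more Cxcl2 than those of naive BM, with 1509.6 against 800.1 CPM (0.92 [0.84, 1.0]), and those of D7 CTX BM held less, with 297 CPM (-1.43 [-1.53, -1.32]). Thinned to 1000 UMIs, 36.4% of mature neutrophils in naive BM, 50.1% in D2 CTX BM and 17.0% in D7 CTX BM held a Cxcl2 UMI (50.3%, 64.3% and 34.1% before thinning), after 78, 372 and 14 shallower cells were left out. In B lineage cells thinned in the same way the shares were 0.364%, 3.18% and 0 of 181 cells, which allows up to 1.66%. Ccl4 had the same order, at 36.2 CPM in naive BM, 69.3 CPM at D2 (0.93 [0.55, 1.33]) and 8.68 CPM at D7 (-2.06 [-2.66, -1.49]). Ccl3 was at 36.7, 74.5 and 27.2 CPM, which is 1.02 [0.64, 1.41] at D2 and -0.43 [-0.85, -0.01] at D7, while Ccl6 was lower at both times (-0.51 and -0.33). Cxcl1, Cxcl10, Ccl2 and Ccl9 had under 50 UMIs over each pair. Of the 4 ligands counted in mature neutrophils, 1 was higher at D2 and 2 were lower at D7 by at least 1 unit. The background at D2 was 8.08% higher and 2.33% lower of 5183 genes, and at D7 it was 1.41% higher and 5.19% lower of 5397 genes. The medians were 0.93 for the ligands and 0.34 for all genes at D2, and -0.93 and -0.14 at D7. With the B lineage level subtracted, no ligand was past 1 unit at D2.

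In unsorted Ly6c2-high monocytes at D2, Ccl2 was 3.76-fold higher than in naive BM (1.91 [1.57, 2.26]), Cxcl2 2.59-fold higher (1.37 [1.07, 1.68]) and Ccl4 2.51-fold higher (1.33 [0.86, 1.79]). Ccl3 was lower, at 98.5 against 147 CPM (-0.58 [-0.88, -0.29]), and Ccl6 and Ccl9 differed by -0.28 and 0.27. Cxcl1 was not counted at either time, nor was Cxcl10 at D2. These are 3 of 6 ligands higher and none lower, where 5.01% of 7145 genes were higher and 2.23% lower, with medians of 0.80 and 0.09. The D2 values rest on 106 cells, and Ccl2, for which B lineage cells of the same library had 1 UMI, was found in 45 of them. At D7 Ccl3 was 2.16-fold higher than in naive BM, with 318 CPM (1.11 [0.95, 1.27]), and the share of thinned monocytes with a Ccl3 UMI was 11.8% in naive BM, 6.67% at D2 and 25% at D7. Cxcl10 also passed 1 unit at D7 (1.07 [0.30, 1.90]), with 59 UMIs in 8 cells, while Ccl4 (0.86), Ccl2 (0.77), Ccl9 (0.19), Cxcl2 (0.08) and Ccl6 (-0.27) were within 1 unit. This makes 2 of 7 ligands higher and none lower, beside 0.691% of 8103 genes higher and 0.740% lower, with medians of 0.77 and -0.04. With classes taken from clusters instead of gates, Ccl3 (0.79) and Cxcl10 (0.83) stayed under 1 unit at D7.

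The sign of the CTX difference in monocytes differed between sorted and unsorted cells for some ligands and not for others. Ccl2 was lower in sorted CTX monocytes (-1.40) and higher in unsorted monocytes at D2 (1.91) and D7 (0.77), and Ccl4 gave -1.06 against 1.33 and 0.86. Ccl3 gave -1.02 in sorted cells, -0.58 at D2 and 1.11 at D7, and Cxcl2 gave -4.21, 1.37 and 0.08, with an interval at D7 that includes 0. Ccl6 was lower in all 3 comparisons (-0.43, -0.28 and -0.27), whereas Ccl9 gave -0.27, 0.27 and 0.19. D2 and D7 share the naive BM library, and no test of these differences was possible.

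Ratios in smaller classes are given by value. In basophils or mast precursors Cxcl2 was higher at D2 (2.69 [1.90, 3.57], 266 against 41.1 CPM), as was Ccl9 (1.12 [0.85, 1.40]), and at D7, from 23 cells, Ccl4 (-2.0 [-2.24, -1.77]) and Ccl6 (-2.36 [-2.91, -1.85]) were lower. In NK cells Ccl4 was 2.04-fold higher at D2 (1.03 [0.79, 1.26]) and 6.49-fold lower at D7 (-2.70 [-3.24, -2.19]), and Ccl3 was lower at D7 (-1.55 [-1.97, -1.15]), where 21 cells were left. Ccl4 in plasmacytoid dendritic cells, which make type I interferon, was at 48.3, 213 and 55.9 CPM in naive, D2 CTX and D7 CTX BM, and a Ccl4 UMI was present in 78 of the 180 cells at D2. In the MDP gate at D2, from 36 cells, Ccl3 was lower, at 20.1 against 137 CPM (-2.76 [-3.40, -2.17]), Ccl6 was lower (-1.37 [-1.73, -1.01]) and Ccl9 was within 1 unit (0.81 [0.49, 1.13]). At D7 Cxcl2 (2.17 [1.09, 3.45]) and Ccl4 (1.18 [0.33, 2.12]) were higher in the MDP gate. Depth differed within some of these gates. The median MDP cell held 10948 UMIs in naive BM and 34924 at D2, and the median NK cell 4099 in naive BM and 18320 at D7. Whether these gates hold like cells at each time was not tested. MHC class II-rich myeloid cells of D2 CTX BM had higher Cxcl2 (2.33 [1.20, 3.7]) and Ccl4 (1.17 [0.27, 2.18]). Ccl4 at D7 was thus past 1 unit lower in mature neutrophils, NK cells and basophils or mast precursors and past 1 unit higher in the MDP gate and in Kit-positive progenitors (1.15 [0.54, 1.77]). It was at 22.7 CPM in the GMP gate at D7 against 0.846 CPM in naive BM, where 2 UMIs were found, and Ly6c2-high monocytes stayed under 1 unit (0.86 [0.47, 1.27]). Ccl4 in B lineage cells was at 7.30 CPM at D7 and 1.85 CPM in naive BM.

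Naive sorted monocytes were not uniform in Cxcl2. The median cell of the gate held 5.04 Cxcl2 UMIs per 10000, and the 90th percentile was 34.1, against 0 and 1.21 in CTX sorted monocytes. After thinning to 1000 UMIs, 851 cells had no Cxcl2 UMI, 406 had 1 or 2 and 289 had 3 or more. Cxcl1 followed Cxcl2 most closely, at 10.9, 37.7 and 64.5 CPM over these groups, and Ccl3 (827, 982 and 1388 CPM), Ccl2 (309, 417 and 544 CPM) Ccl4 (98.8, 119.9 and 142 CPM), Ccl6 (613, 817 and 1037 CPM) and Ccl9 (416, 492 and 573 CPM) were also higher where Cxcl2 was higher. Cxcl10 went the other way, at 15.9, 13.3 and 6.71 CPM. NF-kB pathway genes summed to 2449, 3219.8 and 3899.6 CPM and early response genes to 14589.7, 17374 and 19265 CPM, while cycling genes (Mki67, Top2a and others) summed to 1583, 806 and 139 CPM. Cells of 1 library share its preparation, and these groups are a description with no test. In CTX sorted monocytes, where 89 cells had 1 or 2 Cxcl2 UMIs, Ccl3 was at 875 CPM in those cells and 454 CPM in the 1848 cells without, and Ccl2 at 240.2 and 136 CPM.

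**Figure D5:**
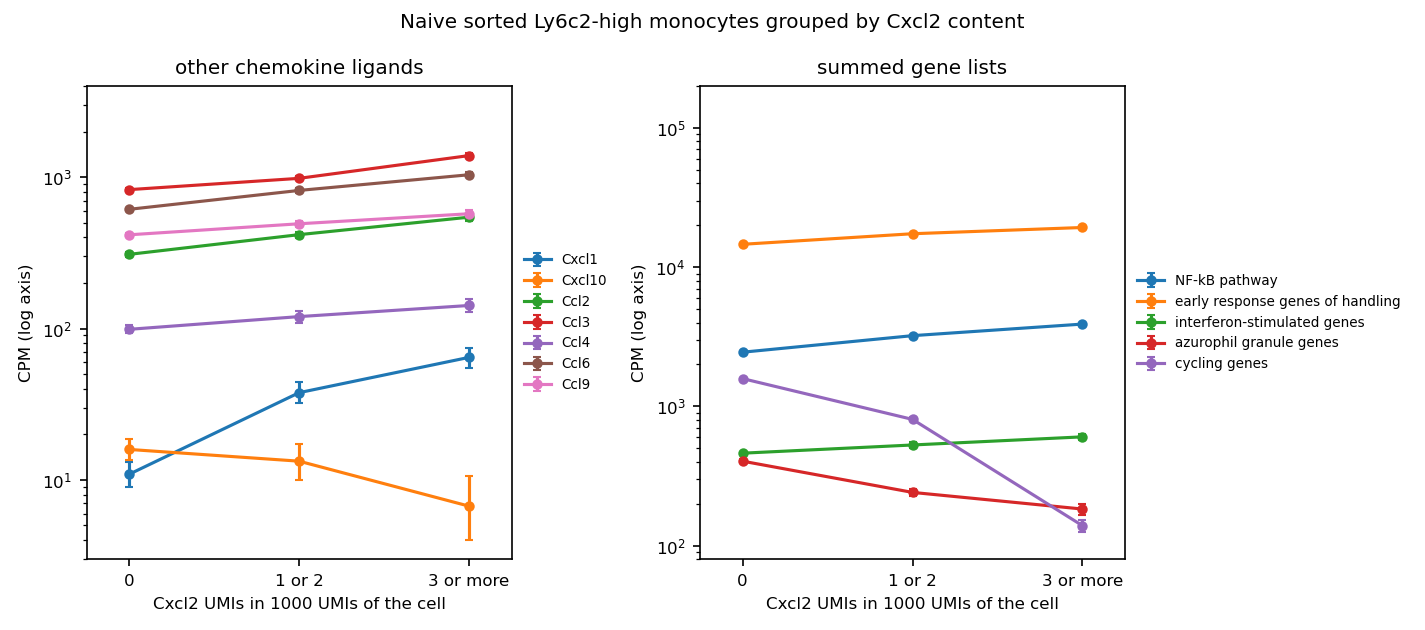
Naive sorted Ly6c2-high monocytes grouped by Cxcl2 UMIs after thinning to 1000 UMIs per cell (x axis, 851, 406 and 289 cells), with the CPM (log axis) of the other ligands on the left and of summed gene lists on the right. Bars are 95% counting intervals. Cxcl1 goes from 10.9 to 64.5 CPM and cycling genes from 1583 to 139 CPM.

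The genes most like each ligand were found by Pearson's r of log2(CPM + 1) over the 40 sums of a class in a whole BM library with at least 50 cells, among 11125 genes. The sums share libraries and depth, and r is given as a description. Cxcl2 was most like Ccr1 (0.929), Trpm2 (0.902) and Ccl6 (0.893), and Ccl6 most like Nlrp3 (0.911), the inflammasome sensor, Cxcl2 (0.893) and Slc2a6 (0.843). Ccl2 was most like the scavenger receptor Msr1 (0.955), the eosinophil attractant Ccl24 (0.940) and Zfyve9 (0.918). Ccl3 was most like Mboat1 (0.814), Ccl4 (0.804) and Tnfsf12 (0.802), Ccl4 most like Pfkp (0.857), Rps6ka3 (0.817) and Abca2 (0.814), and Ccl9 most like Cebpa (0.880), a myeloid transcription factor, Rnf217 (0.871) and Adora2b (0.870). Cxcl10 (highest r 0.724, Tns4) and Cxcl1 (0.729, Cd5l) had lower values, on 449 and 18 UMIs. Among the ligands themselves, Cxcl2 with Ccl6 (0.89) and Ccl3 with Ccl4 (0.80) had the highest r, and Cxcl1 with Cxcl2 had 0.05 in whole BM.

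Few chemokine receptor genes were past 1 unit in sorted cells. Of 7 chemokine receptor genes counted, 1 was at least 1 unit lower in CTX sorted cells, Ccrl2 (-2.03, 43.6 against 178 CPM), an atypical receptor that binds chemerin, followed by Ccr1 (-0.41) and Cx3cr1 (-0.39). Of all genes counted, 1.49% were lower by that much. Ccrl2 was also the 1 receptor of 5 that was higher in sorted than in unsorted naive monocytes (2.20), beside 3.13% of all genes. In whole BM at D2, 3 of 8 receptors were higher, Ccr3 (2.45), Ccr1 (1.47) and Cxcr2 (1.36), where 11.5% of all genes were higher, and at D7 1 of 8 was lower, Ccr3 (-1.38), where 32.2% of all genes were lower. In unsorted Ly6c2-high monocytes at D2, 1 of 5 was higher, Ccr1 (1.25), beside 5.01% of all genes. At D7 none of 5 was past 1 unit, where 0.691% of all genes were higher and 0.740% lower. Ccr2 is itself a marker of the Ly6c2-high monocyte gate, so its level there is partly set by the gate. Mature neutrophils showed no receptor past 1 unit of 4 counted at D2, where 8.08% of all genes were higher and 2.33% lower. At D7 1 of 5 was lower (Ccrl2, -1.29), beside 5.19% of all genes. Cxcr2 is likewise a marker of the mature neutrophil gate.

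Of the 28 other chemokine ligand genes, few were counted often enough. In sorted cells 4 were counted, with Cxcl9 higher in CTX sorted cells (2.81, 1.57 against 0.224 CPM) and Cxcl16 lower (-1.83, 0.734 against 2.60 CPM). In whole BM at D2, 5 of 12 were higher and none was lower, led by Cxcl14 (2.89), Cxcl16 (2.79) and Cxcl12 (2.30), the stromal ligand that retains cells in the marrow, and at D7 6 of 9 were lower, led by Ccl5 (-3.59), Cxcl9 (-3.05) and Ppbp (-2.88). Over all genes 11.5% were higher at D2 and 32.2% lower at D7. Ccl24 was the only other ligand gene counted in unsorted Ly6c2-high monocytes at D2 (0.84, 48.1 against 26.8 CPM).

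The 16 interferon-stimulated genes, which include Cxcl9, are those that share a known inducer with Cxcl10. In mature neutrophils of D2 CTX BM 9 of 13 counted were at least 1 unit higher, led by Ifit1 (2.82), Oasl2 (2.66) and Ifit2 (2.31), and their sum was 1205 CPM against 453 CPM in naive BM, while Cxcl10 had 0 UMIs in these cells and 2 in naive BM. Over all genes of mature neutrophils 8.08% were higher at D2. In whole BM 11 of 16 were higher at D2, beside 11.5% of all genes, and 4 of 16 were lower at D7, a share below the 32.2% of all genes that were lower. In CTX sorted cells 4 of 16 were lower and 1, Cxcl9, was higher, beside 1.49% and 0.815% of all genes. NF-kB pathway genes had 9 of 20 higher in D2 CTX BM, led by Traf1 (1.78), Il1b (1.68) and Ptgs2 (1.47), and 5 of 20 lower in D7 CTX BM, led by Cd83 (-3.02), Traf1 (-1.64) and Ptgs2 (-1.45), where the share of all genes that were lower was again the greater. In mature neutrophils, the main holders of Cxcl2, 2 of 15 NF-kB pathway genes were higher at D2 (Tnfaip3, 1.44, and Birc3, 1.18) and 3 of 14 were lower at D7 (Ptgs2, -2.02, Nfkbiz, -1.18, and Bcl3, -1.03), beside 8.08% of all genes higher and 5.19% lower. Il1b of this list is also a marker of the mature neutrophil gate, so its level there is partly set by the gate.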

How the data were processed

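Single-cell RNA was counted in 5 libraries, and the deposited matrices hold whole-number UMI counts per gene and cell that the authors made with Cell Ranger 3.1 on mm10, as the submitters' processing notes name them. The notes also name Seurat 5.0. No deposited cell annotation was used. The 8 ligands are named in each comparison of libraries, of Ly6c2-high monocytes and of mature neutrophils, and in smaller classes those chosen after their values were seen. Of each gene list the 3 genes with the largest log2 ratio among those with at least 50 UMIs over the pair are named. Some genes of the lists are not reported here. The ligands, lists and comparisons were chosen with earlier results of these data known, and the limits of the marker gates were set after the counts were seen.

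Cells with at least 200 genes and under 20% mitochondrial UMIs were kept. Gates on summed marker UMIs per 10000 placed cells in 18 classes, and cells passing several gates or none were left out of them. Counts were summed by library and class, scaled to CPM and compared as log2 ratios, with exact 95% Poisson, conditional binomial and Clopper-Pearson intervals. A ratio of at least 1 log2 unit was counted. The UMI totals of the kept cells were 46065849 (naive BM), 33940059 (D2 CTX BM), 67921924 (D7 CTX BM), 22279758 (naive sorted) and 28622354 (CTX sorted). To compare shares of cells, each cell was thinned to 1000 UMIs. Doublets were kept. As an alternative they were removed by Scrublet rank at 0.8% per 1000 cells, because the automatic threshold marked 1 cell of D7 CTX BM. Other alternatives changed the scaling, filters, cell limits and class assignment. The ratio script was tested on simulated data. Python 3.11.15, numpy 2.4.6, scipy 1.17.1, pandas 2.3.3 and scanpy 1.11.5 were used.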

Additional observations from a re-analysis of the deposited data

Results flagged for a closer look

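In several settings a ligand was higher after CTX in one set of cells and lower in another. With 1 library per group the differences between these ratios were not tested, and D2 and D7 share the naive BM library. Each value below is the difference between a pair of log2 ratios of CTX over naive.

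In Ly6c2-high monocytes the ratio of unsorted cells at D7 was above that of sorted cells by 2.17 for Ccl2 (-1.40 sorted and 0.77 unsorted), by 2.13 for Ccl3 (-1.02 and 1.11), by 1.92 for Ccl4 (-1.06 and 0.86), by 1.48 for Cxcl10 (-0.41 and 1.07) and by 0.46 for Ccl9 (-0.27 and 0.19). The Cxcl10 ratio of unsorted cells rests on 8 cells at D7.

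Between D2 and D7, mature neutrophils differed by -2.99 for Ccl4 (0.93 at D2 and -2.06 at D7), by -2.35 for Cxcl2 (0.92 and -1.43) and by -1.45 for Ccl3 (1.02 and -0.43). Whole BM differed by -2.83 for Ccl4 (0.70 and -2.13), by -2.09 for Cxcl2 (1.58 and -0.51) and by -0.29 for Ccl6 (0.25 and -0.04). Ccl3 in unsorted Ly6c2-high monocytes went the other way, by 1.69 (-0.58 at D2 and 1.11 at D7). The signs in whole BM at D7 depend on the scaling for Cxcl2 and Ccl6. Scaled by the median ratio of all genes they were at 0.18 and 0.65, while Ccl4 was still lower (-1.44).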

How the results depend on the processing

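No paired analysis was possible because each group is 1 library, and for the same reason no replicate could be left out. Of 22 single ratios past 1 log2 unit, 14 stayed past it under every alternative that gave a ratio and 21 kept their sign. Cxcl1 in sorted over unsorted naive monocytes is not among them, because its unsorted count of 0 gives no ratio. The exception was Ccl2 in sorted over unsorted CTX monocytes, at -0.11 against D2 CTX monocytes, a setting chosen after seeing the data, under which 2 ligands were lower. Without the gate on sorted cells the number higher there was 0. In sorted over unsorted naive monocytes, Cxcl10 (1.03) fell below 1 unit under the 2 alternatives run (0.92 and 0.96). Among sorted cells low in early response genes, also chosen after seeing the data, 2 ligands were lower in CTX cells. Cxcl1 gave no ratio in those cells, so between the sorted libraries it was read under 8 alternatives, against 9 for Cxcl2. For whole BM at D2, 1 ligand was higher when scaled by the median ratio, as a mean over cells, or with 1 CPM added. For whole BM at D7, 2 were higher with the 20 most abundant genes left out of the total or with the median ratio, 1 was higher as a mean over cells or with no filter on low genes, and 2 were lower as a mean over cells. The median of all genes at D7 went from -0.69 to -0.25 without the 20 most abundant genes. The share of all genes past 1 unit was not counted for the alternatives in this paragraph. Their numbers of ligands therefore have no background to be read against. The number higher was 0 in mature neutrophils at D2 with the B lineage level subtracted and 0 in monocytes at D7 with classes from clusters. Thinned to 2000 UMIs, the shares with a Cxcl2 UMI were 54.9% and 6.55% in naive and CTX sorted monocytes and 47.4%, 59.2% and 25.1% in mature neutrophils of naive, D2 CTX and D7 CTX BM, and those with a Ccl3 UMI were 66.8% and 42.7% in naive and CTX sorted monocytes. The cause of these shifts was not tested. Depth limits Cxcl1, which had 18 UMIs in whole BM.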

Other observations

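Classes gated on progenitor markers held ligands at levels of their own. In the Kit-positive progenitor gate, of 80, 140 and 52 cells in naive, D2 CTX and D7 CTX BM, Ccl3 was at 10.2, 45.8 and 92.0 CPM and Ccl9 at 20.4, 53.0 and 90.1 CPM, so that both were above their naive values at both times. In the GMP gate Ccl4 was at 0.846 CPM in naive BM, 21.4 CPM at D2 and 22.7 CPM at D7, found in 2 of 202, 12 of 58 and 43 of 567 cells. B lineage cells of the same libraries were at 1.85, 11.6 and 7.30 CPM for Ccl4. Median depth was 8652, 25159 and 8281 UMIs in the Kit-positive progenitor gate and 11573, 31451 and 10453 UMIs in the GMP gate. In sorted cells of the MDP gate Cxcl2 was at 214 CPM in naive and 9.18 CPM in CTX cells (-4.54 [-4.96, -4.15]), while Ccl6 was at 97.7 and 94.3 CPM (-0.05 [-0.24, 0.14]).

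In D2 CTX BM, B lineage cells held Cxcl2 at 30.6 CPM and Ccl6 at 46.2 CPM, above 1.54 and 6.36 CPM in naive BM. Plasmacytoid dendritic cells of D2 CTX BM held Ccl6 at 50.4 CPM, close to the B lineage value, but Ccl4 at 213 CPM against 11.6 CPM in B lineage cells.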
